A study of Homo sapiens with 14 samples.

Results

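The genes described here are 43 human genes that make polyunsaturated fatty acids, activate them and build them into membrane phospholipids. They were chosen by name, and each of the 43 symbols matched 1 Ensembl gene of the 61541 in the deposited count table. RNA comes from 6 libraries labelled BxPC-3, a human pancreatic cancer cell line, at day 3: 3 are labelled as carrying a control short hairpin (shControl, genotype WT) and 3 as carrying one against the histone deacetylase HDAC5 (shHDAC5, genotype HDAC5 knockdown). GATA1, a zinc-finger transcription factor, was immunoprecipitated in PANC-1, another pancreatic cancer line, also at day 3. These samples are titled NC or shHDAC5, and NC is written below as the shControl label. In PANC-1 each label has 2 immunoprecipitations and 2 inputs. The labels do not say how many hairpin sequences or clones stood behind a group, nor that its libraries came from different cultures. The p-values therefore cover the spread among these libraries alone, and that spread may be technical.

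Cells obtain arachidonic acid and related polyunsaturated fatty acids from the medium or by alternating desaturation and elongation of dietary precursors. Acyl-CoA synthetases couple the free acids to coenzyme A, and acyltransferases of the Lands cycle place them on lysophospholipids, so that the acyl chains of a membrane are exchanged without making the whole lipid anew. New phospholipids come from phosphatidic acid, which lipins turn into diacylglycerol before the choline or ethanolamine head group is added.

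Library totals ran from 15179758 to 17854340 counts. Genes with at least 1 count numbered 25775 to 26078 (shControl labels) and 33115 to 33632 (shHDAC5 labels). HDAC5 itself had 95.4, 91.7 and 97.7 CPM against 162, 161 and 169 CPM, where CPM are counts scaled to TMM-adjusted library size. It was thus higher under its own knockdown label (log2 fold change 0.79, SE 0.0358, adjusted p = 3.95e-40, edgeR; edgeR stands throughout for its quasi-likelihood test, adjusted by Benjamini-Hochberg over all genes tested, and SE for standard error). The targeted RNA went against the label, and every direction below is between libraries as labelled. Of 6 markers of pancreatic cancer epithelium, EPCAM (1.84 ± 0.315 and 1.99 ± 0.382 CPM), CDH1 (1.43 ± 0.395 and 1.33 ± 0.430 CPM) and KRT19 (0.0215 ± 0.0372 and 0.0947 ± 0.0633 CPM; SD, n = 3 each) were near 0, so that KRT7, KRT8 and KRT18 carried the list's sum of 1477 to 1507 CPM (shControl labels) and 1327 to 1395 CPM (shHDAC5 labels). Within that sum KRT7 fell from 371 ± 9.72 to 25.3 ± 0.445 CPM and KRT8 rose from 717 ± 11.9 to 1009.8 ± 25.6 CPM (SD, n = 3 each). With these levels the labelled cell line could not be checked by its epithelial markers, and its identity is uncertain. In the same order of labels, 6 fibroblast markers summed to 121 to 131 and 85.7 to 90.9 CPM with LUM at 0, and 5 endothelial ones to 1.21 to 1.48 and 3.58 to 4.18 CPM. The 5 leukocyte markers summed to 0.140 to 0.193 and 1.62 to 2.63 CPM, 4 adipocyte ones to 0.386 to 0.724 and 0.503 to 0.973 CPM, and 4 hepatocyte ones to 0.0604 to 0.349 and 4.58 to 5.02 CPM with TTR at 0. The part of these differences in the results was not tested.

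Of the 43 genes, 39 passed the filter on low counts and were tested. In the libraries labelled shHDAC5, 18 of them rose and 18 fell at an adjusted p under 0.05, and 3 did not pass. Among all 19181 tested genes 84.7% passed, 44.8% upward and 39.9% downward, beside 46.2% and 46.2% of the tested lipid genes. At a change of at least 2-fold the counts were 9 up and 6 down, or 23.1% and 15.4%, beside 26.4% and 20.1% of all genes. The CPM ranges of both groups were apart for 35 of the 39 genes (89.7%, beside 84.8% of all genes), 18 upward (beside 45.0%) and 17 downward (beside 39.8%). The median log2 fold change was 0.010 over the lipid genes and 0.091 over all genes tested, and the median size of the change was 0.62 and 0.91. These shares lie near the background, so the number of changed genes is not a result about the set. The counts for each role below stand beside the same shares of all genes: 44.8% up, 39.9% down and 84.8% with groups apart. All 8 roles held genes of both directions, though in the synthetases and the phospholipases D the only falls, of ACSL4 and PLD1, had the other sign under upper-quartile and total-count scaling. Fewer cells of a type and less RNA per cell cannot be told apart in such bulk libraries. The balance depends on scaling, with 21 up and 14 down under upper-quartile factors (beside 49.4% and 35.7% of all genes) and 22 up and 12 down with total counts alone (beside 50.7% and 34.4%), where the median log2 fold change of all genes was 0.23 and 0.27.

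**Figure D1:**
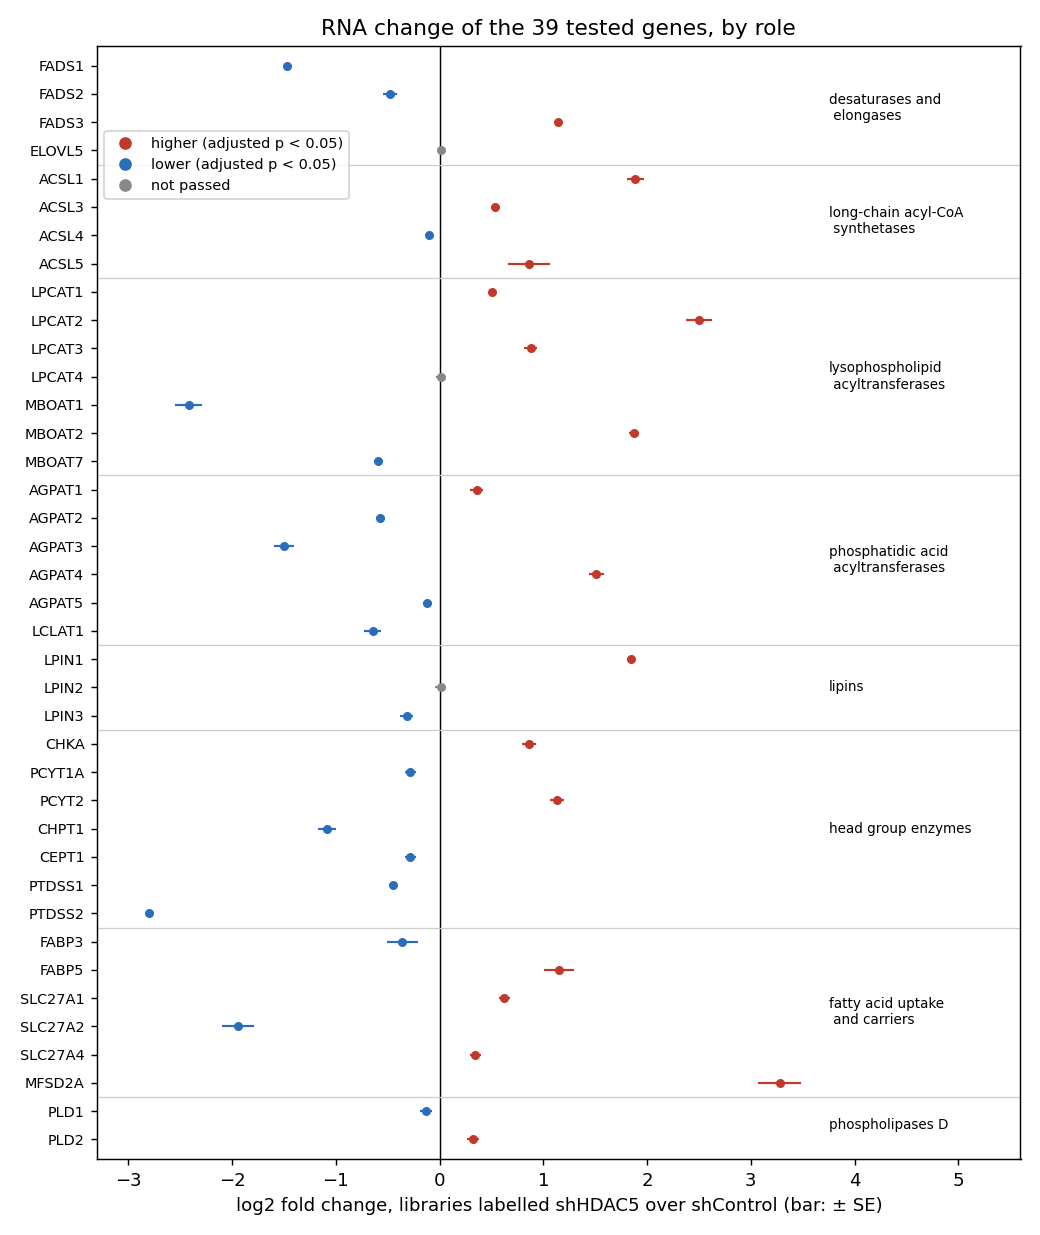
Log2 fold change (x axis, libraries labelled shHDAC5 over shControl) of the 39 tested genes, grouped by role. Points are edgeR estimates from 3 against 3 libraries and bars are ± 1 SE. Colours separate higher, lower and not passed, the last being ELOVL5, LPCAT4 and LPIN2. The values run from -2.80 for PTDSS2 to 3.28 for MFSD2A.

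The desaturase transcripts did not move together. FADS1, the desaturase that forms arachidonic acid in the last step, fell, FADS2, which acts in the first step, fell less, and FADS3, a relative that acts on sphingoid bases, rose. FADS1 (ENSG00000149485) stood at 471, 465 and 481 CPM in the 3 libraries labelled shControl and at 171, 173 and 167 CPM in those labelled shHDAC5. All 3 of the latter lay far below the former (log2 fold change -1.47, SE 0.0283, adjusted p = 1.01e-74, edgeR). FADS2 (ENSG00000134824) had 38.0, 37.0 and 33.1 CPM against 25.5, 25.4 and 26.9 CPM, again without overlap (log2 fold change -0.47, SE 0.0670, adjusted p = 3.44e-10, edgeR). FADS3 (ENSG00000221968) moved the other way, from 117, 125 and 123 CPM to 279, 263 and 268 CPM (log2 fold change 1.14, SE 0.0322, adjusted p = 7.28e-59, edgeR).

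ELOVL5, which elongates products of both desaturation steps, had 343, 341 and 353 CPM against 346, 355 and 349.7 CPM. Its groups overlapped and it did not pass (log2 fold change 0.018, SE 0.0268, adjusted p = 0.539, edgeR). It did pass upward with upper-quartile factors, total counts and a stricter filter (log2 fold change 0.16, 0.20 and 0.11; edgeR's adjusted p from 3.69e-12 to 0.996 over all alternatives). The other elongases of the set were near silent. ELOVL2, which extends chains toward docosahexaenoic acid, had 0, 0 and 2 counts against 2, 1 and 4, and ELOVL4, which makes very long chains, had 0, 0 and 0 against 3, 1 and 0, too few to show a change at this depth.

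Levels of different genes were set side by side as RPKM, the CPM divided by the deposited gene length in kilobases. FADS1 took 67.0% ± 0.781 of the summed RPKM of the 3 FADS genes under shControl labels and 26.9% ± 0.758 under shHDAC5 labels (SD, n = 3 each). FADS3 took 28.1% ± 0.765 and 69.1% ± 0.782, and FADS2 4.95% ± 0.404 and 3.96% ± 0.172, in the same order. The leading desaturase transcript was therefore FADS1 in all 3 libraries of one label and FADS3 in all 3 of the other, while the summed level was 69.0 ± 0.766 and 62.0 ± 1.24 RPKM. The 3 genes lie within 92.6 kb on chromosome 11 (GRCh38, FADS1 61799627 to 61817003, FADS2 61816203 to 61867354, FADS3 61873526 to 61892224). FADS1 and FADS2 overlap by 801 bp, so reads there cannot be assigned without strand. Of 6 neighbours of the locus 5 fell and 1, BEST1, rose, beside 39.9% and 44.8% of all genes tested. FEN1, a flap endonuclease of DNA replication, fell from 168 ± 0.775 to 44.1 ± 1.18 CPM and FTH1, the ferritin heavy chain, from 933 ± 9.67 to 513 ± 12.1 CPM, while BEST1, a chloride channel, rose from 3.56 ± 0.419 to 7.59 ± 1.23 CPM (SD, n = 3 each). RAB3IL1, TMEM258 and MYRF fell by 1.95, 0.31 and 0.17 on the log2 scale. With total counts alone TMEM258 no longer passed and MYRF had the other sign (0.010). MYRF was also lost with upper-quartile factors, DESeq2, a stricter filter or without shHDAC5 replicate 2 (edgeR, adjusted p = 0.0908).

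**Figure D2:**
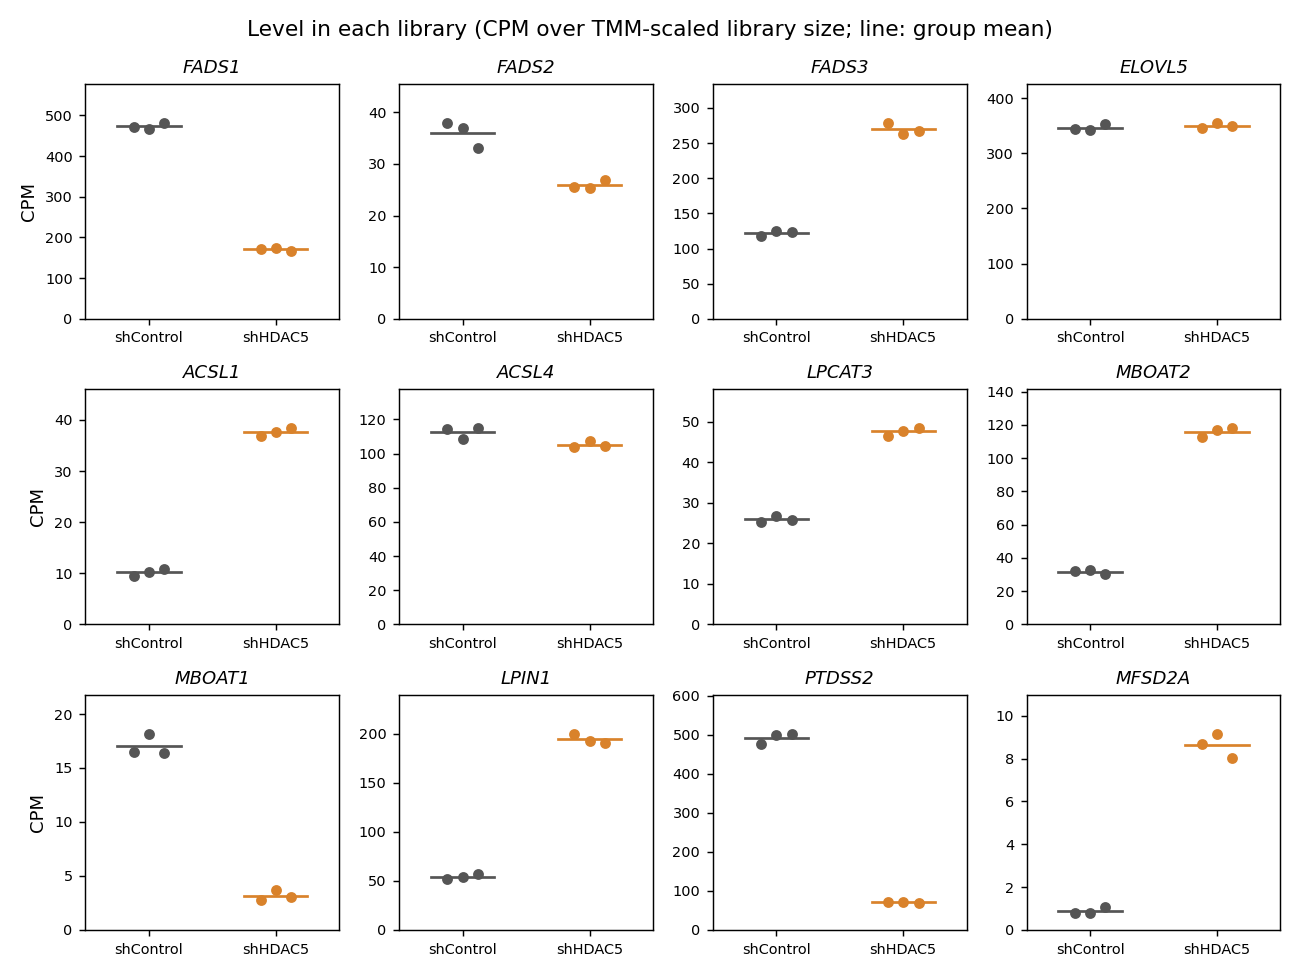
CPM over TMM-scaled library sizes (y axis, linear and starting at 0) of 12 genes in each of the 6 libraries, by label. Points are libraries and lines are means of 3. FADS1, FADS2, MBOAT1 and PTDSS2 sit lower and FADS3, ACSL1, LPCAT3, MBOAT2, LPIN1 and MFSD2A higher in all 3 libraries labelled shHDAC5, while the ELOVL5 points overlap.

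Among the long-chain acyl-CoA synthetases, which activate fatty acids for later steps, 3 of 4 tested genes rose. ACSL1, an isoform abundant in fat and liver, rose from 9.52, 10.3 and 10.7 CPM to 36.9, 37.7 and 38.4 CPM (log2 fold change 1.89, SE 0.0810, adjusted p = 3.2e-42, edgeR). ACSL3, found on lipid droplets, rose from 238, 251 and 250.2 CPM to 355, 354 and 359 CPM (log2 fold change 0.53, SE 0.0280, adjusted p = 6.29e-35, edgeR). ACSL5, known from intestine, rose from 1.93, 2.86 and 2.41 CPM to 4.08, 4.58 and 4.42 CPM (log2 fold change 0.86, SE 0.199, adjusted p = 4.79e-05, edgeR). In each of these the groups were apart, beside 84.8% of all genes tested. ACSL6, known mainly from brain, had 0, 0 and 2 counts against 4, 2 and 6 and was not tested.

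ACSL4, the isoform that prefers arachidonic acid and is known for its part in ferroptosis, barely moved, with 115, 108 and 115 CPM against 104, 108 and 104 CPM. The highest library labelled shHDAC5 lay just under the lowest labelled shControl, and the fall passed (log2 fold change -0.10, SE 0.0375, adjusted p = 0.0117, edgeR). It was lost with DESeq2, with DESeq2's size factors in edgeR and with a stricter filter (adjusted p = 0.0502, 0.0804 and 0.791), with adjusted p from 0.000528 to 0.791 over all alternatives. Under upper-quartile factors it had the other sign without passing (log2 fold change 0.041, edgeR, adjusted p = 0.284), and with total counts alone ACSL4 was called higher (log2 fold change 0.085, adjusted p = 0.0268). By share of summed RPKM, ACSL4 held 36.9% ± 1.43 and 24.9% ± 0.423 of the family under shControl and shHDAC5 labels, while ACSL1 held 5.42% ± 0.221 and 14.5% ± 0.172 (SD, n = 3 each). ACSL3 was the largest isoform in every library, at 55.7% ± 0.944 and 58.1% ± 0.453. The ACSL4 promoter is printed because 1 of the 2 strongest GATA1 peaks at these genes, described below, lies over it. It runs from 250 bases before to 50 after the start (RefSeq, GRCh38.p14, chrX:109733208-109733507, minus strand), and capitals would mark GATAA or CCAAT on either strand, of which it holds none.
ACSL4: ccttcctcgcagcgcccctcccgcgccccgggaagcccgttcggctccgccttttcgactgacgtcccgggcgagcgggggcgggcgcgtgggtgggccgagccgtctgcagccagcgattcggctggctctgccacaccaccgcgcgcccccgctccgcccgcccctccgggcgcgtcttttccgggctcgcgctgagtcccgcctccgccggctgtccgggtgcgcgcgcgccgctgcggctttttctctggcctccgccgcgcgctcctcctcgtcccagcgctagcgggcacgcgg

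The lysophospholipid acyltransferases carry out the reacylation step of the Lands cycle. Of 7 tested, 4 rose, 2 fell and LPCAT4 did not pass. LPCAT3, which places arachidonic acid on lysophosphatidylcholine, rose from 25.3, 26.7 and 25.6 CPM to 46.6, 47.8 and 48.4 CPM (log2 fold change 0.88, SE 0.0614, adjusted p = 7.9e-26, edgeR). MBOAT7, which places it on lysophosphatidylinositol, fell from 85.3, 84.6 and 89.4 CPM to 58.6, 57.1 and 56.6 CPM (log2 fold change -0.59, SE 0.0445, adjusted p = 1.43e-23, edgeR). The arachidonoyl transferases for choline and inositol lipids thus went in opposite directions, each without overlap between groups.

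LPCAT2, which also makes platelet-activating factor, rose from 4.83, 3.00 and 3.14 CPM to 19.7, 21.2 and 21.3 CPM (log2 fold change 2.50, SE 0.124, adjusted p = 4.61e-37, edgeR). LPCAT1, known from surfactant lipids, rose from 535, 546 and 544 CPM to 773, 769 and 772 CPM (log2 fold change 0.51, SE 0.0240, adjusted p = 7.39e-39, edgeR). The related enzymes MBOAT1 and MBOAT2, which favour oleic acid, moved apart. MBOAT2 rose from 32.2, 32.7 and 30.2 CPM to 113, 117 and 118 CPM (log2 fold change 1.87, SE 0.0477, adjusted p = 6.67e-63, edgeR). MBOAT1 fell from 16.5, 18.2 and 16.4 CPM to 2.78, 3.66 and 3.07 CPM (log2 fold change -2.42, SE 0.130, adjusted p = 4.25e-34, edgeR). The groups were apart in all 4 of these genes, beside 84.8% of all genes tested. LPCAT4 stood at 87.1 ± 2.94 and 87.7 ± 1.06 CPM (SD, n = 3 each) and did not pass, though it did upward with upper-quartile factors, total counts and a stricter filter (edgeR, adjusted p = 0.000373, 6.37e-06 and 0.0179; up to 0.954 over all alternatives). By share of summed RPKM, LPCAT1 made up 63.3% ± 0.159 and 67.8% ± 0.261 of these 7 genes, MBOAT7 12.4% ± 0.376 and 6.18% ± 0.120, and MBOAT2 2.76% ± 0.123 and 7.59% ± 0.178 under shControl and shHDAC5 labels (SD, n = 3 each).

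**Figure D3:**
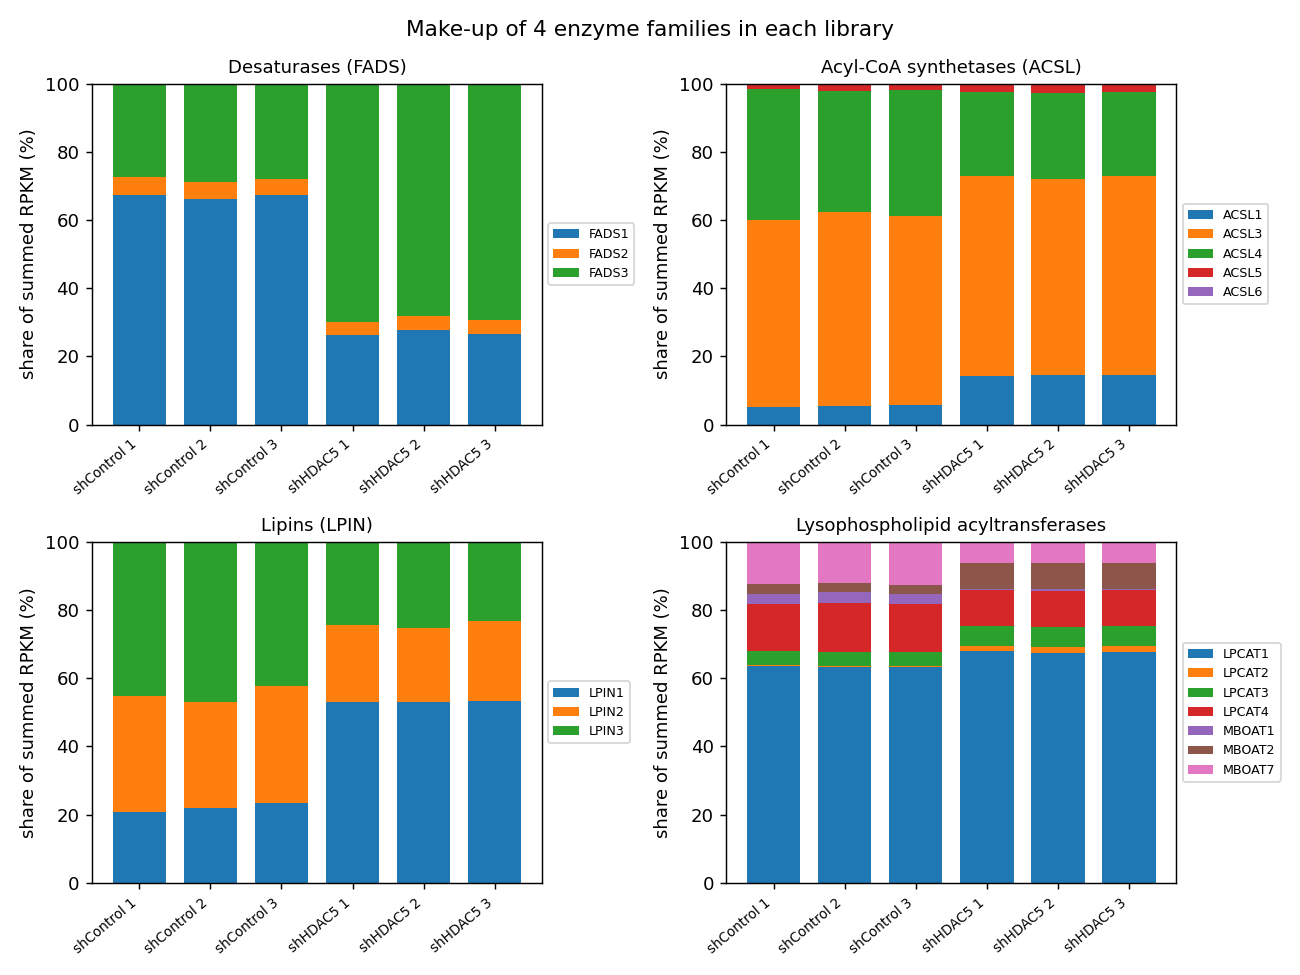
Share (y axis, percent) of each gene in the summed RPKM of its family in each of the 6 libraries, for desaturases, acyl-CoA synthetases, lipins and lysophospholipid acyltransferases. FADS1 leads in the 3 libraries labelled shControl and FADS3 in the 3 labelled shHDAC5, LPIN1 goes from a mean of 21.9% to 53.1%, and ACSL3 and LPCAT1 lead their families in every library.

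The acyltransferases that add the second chain to make phosphatidic acid came next, and of 6 tested 2 rose and 4 fell. AGPAT3, reported to favour polyunsaturated chains, fell from 23.0, 21.2 and 24.6 CPM to 7.86, 7.39 and 9.06 CPM (log2 fold change -1.50, SE 0.0984, adjusted p = 9.95e-28, edgeR). AGPAT2, the enzyme lost in a congenital lipodystrophy, fell from 89.5, 87.7 and 93.5 CPM to 61.7, 60.9 and 60.0 CPM (log2 fold change -0.57, SE 0.0436, adjusted p = 3.72e-23, edgeR). AGPAT4, another member of the family, rose from 13.7, 14.7 and 14 CPM to 41.1, 39.0 and 40.7 CPM (log2 fold change 1.51, SE 0.0738, adjusted p = 1.48e-37, edgeR). No groups overlapped among these 3, and the groups were apart for 84.8% of all genes tested. AGPAT1 rose from 30.1 ± 1.27 to 38.6 ± 2.29 CPM, and LCLAT1, which also remodels cardiolipin, fell from 23.4 ± 0.681 to 14.9 ± 1.81 CPM (SD, n = 3 each). AGPAT5 fell from 87.6 ± 2.93 to 80.7 ± 2.63 CPM (log2 fold change -0.12, SE 0.0417, adjusted p = 0.00750, edgeR). That call was lost with a stricter filter (log2 fold change -0.028) and had the other sign under upper-quartile factors and total counts (0.023 and 0.067), with edgeR's and DESeq2's adjusted p from 0.00114 to 0.600 over all alternatives.

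Lipins, which remove the phosphate of phosphatidic acid, showed 1 large change. LPIN1, which also acts as a transcriptional coactivator, rose from 52.1, 53.5 and 56.6 CPM to 199.8, 192 and 191 CPM (log2 fold change 1.84, SE 0.0388, adjusted p = 7.15e-71, edgeR). LPIN3 fell from 44.5, 45.3 and 40.6 CPM to 36.3, 35.7 and 32.5 CPM (log2 fold change -0.32, SE 0.0599, adjusted p = 1.06e-06, edgeR). Both had groups that were apart. LPIN2 stood at 45.8 ± 2.58 and 46.2 ± 2.08 CPM and did not pass, though it did upward under upper-quartile factors and total counts. By share of summed RPKM, LPIN1 was the smallest lipin in each library labelled shControl (21.9% ± 1.26). By that share it was the largest in each labelled shHDAC5 (53.1% ± 0.170, SD, n = 3 each). In CPM, however, LPIN1 was the largest lipin in every library of both labels. Its smallest place under shControl labels thus comes from the deposited lengths, 11861, 6629 and 4667 bases for LPIN1, LPIN2 and LPIN3.

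Head group enzymes held the largest fall among the 39 genes, and 2 of 7 rose while 5 fell. PTDSS2 (ENSG00000174915), which makes phosphatidylserine from phosphatidylethanolamine, fell from 477, 499 and 502 CPM to 71.9, 71.4 and 68.9 CPM (log2 fold change -2.80, SE 0.0322, adjusted p = 1.97e-96, edgeR). Every library labelled shHDAC5 lay far below the others. Its relative PTDSS1, which uses phosphatidylcholine instead, fell from 112 ± 0.657 to 82.5 ± 3.12 CPM. On the RPKM scale PTDSS2 stood at 80.5 ± 2.25 and PTDSS1 at 18.4 ± 0.107 under shControl labels, and at 11.6 ± 0.263 and 13.5 ± 0.510 under shHDAC5 labels (SD, n = 3 each), so the order of the pair turned over.

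In the ethanolamine branch PCYT2, the enzyme that sets its rate, rose from 21.6, 24.4 and 20.3 CPM to 49.5, 45.2 and 49.8 CPM (log2 fold change 1.13, SE 0.0655, adjusted p = 1.18e-31, edgeR). In the choline branch CHPT1, the final transferase, fell from 26.6, 30.9 and 31.9 CPM to 11.9, 15.1 and 15.2 CPM (log2 fold change -1.09, SE 0.0834, adjusted p = 4.73e-23, edgeR). Neither had overlapping groups. CHKA, the choline kinase that starts that branch, rose from 23.1 ± 2.15 to 42.2 ± 2.02 CPM, while PCYT1A, its rate-limiting enzyme, fell from 57.6 ± 1.92 to 47.5 ± 2.52 CPM. CEPT1, which serves both branches, fell from 51.7 ± 4.88 to 42.6 ± 2.11 CPM (SD, n = 3 each). With total counts alone, the falls of PCYT1A and CEPT1 no longer passed (edgeR, adjusted p = 0.0723 and 0.0997; lowest over all alternatives 3.64e-08 and 3.93e-09).

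The PTDSS2 and CHPT1 promoters cover the same span and come from the same RefSeq table as that of ACSL4. PTDSS2 is printed because it had both the largest fall and the strongest GATA1 peak beside its start. CHPT1 is printed because it fell and holds the letters GATAA in a window that overlaps a peak. PTDSS2 lies at chr11:450029-450328 and CHPT1 at chr12:101697390-101697689, both on the plus strand. Capitals mark GATAA or CCAAT on either strand.
PTDSS2: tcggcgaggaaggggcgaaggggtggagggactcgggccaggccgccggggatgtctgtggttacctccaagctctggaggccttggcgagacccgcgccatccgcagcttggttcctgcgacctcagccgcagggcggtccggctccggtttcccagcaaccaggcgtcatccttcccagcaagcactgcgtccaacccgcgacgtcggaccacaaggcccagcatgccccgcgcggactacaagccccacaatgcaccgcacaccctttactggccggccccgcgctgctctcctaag
CHPT1: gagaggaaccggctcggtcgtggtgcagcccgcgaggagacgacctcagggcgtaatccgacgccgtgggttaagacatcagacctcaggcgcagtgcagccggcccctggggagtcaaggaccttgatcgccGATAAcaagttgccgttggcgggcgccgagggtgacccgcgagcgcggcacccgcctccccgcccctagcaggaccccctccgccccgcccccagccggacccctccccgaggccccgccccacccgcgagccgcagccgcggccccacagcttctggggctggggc

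Fatty acid uptake and carrier genes gave the largest rise among the 39 genes, and 4 of 6 tested rose while 2 fell. MFSD2A (ENSG00000168389), which imports lysophosphatidylcholine carrying docosahexaenoic acid, rose from 0.772, 0.769 and 1.09 CPM to 8.69, 9.16 and 8.05 CPM (log2 fold change 3.28, SE 0.209, adjusted p = 1.46e-28, edgeR). It rests on 41 and 451 counts per group, which were apart in every library. SLC27A2, a fatty acid transport protein with acyl-CoA synthetase activity, fell from 9.91, 11.8 and 10.1 CPM to 2.60, 2.35 and 3.30 CPM (log2 fold change -1.94, SE 0.154, adjusted p = 4.66e-22, edgeR). Its relative SLC27A1 rose from 38.4, 39.9 and 42.5 CPM to 61.6, 61.4 and 63.3 CPM (log2 fold change 0.62, SE 0.0523, adjusted p = 9.55e-21, edgeR). A further relative, SLC27A4, rose from 45.5 ± 0.566 to 57.8 ± 0.727 CPM. FABP5, a fatty acid binding protein of epithelia whose reads could be shared with near-identical pseudogenes, rose from 4.11 ± 0.240 to 9.15 ± 0.677 CPM (SD, n = 3 each).

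FABP3, a binding protein of heart muscle, fell from 7.47, 7.06 and 5.73 CPM to 5.14, 4.87 and 5.70 CPM (log2 fold change -0.36, SE 0.150, adjusted p = 0.0215, edgeR). The lowest library labelled shControl lay just above the highest labelled shHDAC5. The call was lost with DESeq2, upper-quartile factors, total counts and a stricter filter. It was also lost without shControl replicate 1 (edgeR, adjusted p = 0.0898) and without shHDAC5 replicate 2 (adjusted p = 0.0690), with adjusted p from 0.00381 to 0.261 over all alternatives. CD36, the receptor that takes up fatty acids in fat, muscle and macrophages, was below the filter with 0, 4 and 3 counts against 10, 9 and 20. The ratio over groups was 4.95, with a 95% exact interval of 2.19 to 13.1 that covers counting error only.

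The phospholipases D, which cut phosphatidylcholine into choline and phosphatidic acid, changed little. PLD2 rose from 37.3, 34.4 and 35.5 CPM to 45.6, 42.5 and 45.7 CPM (log2 fold change 0.32, SE 0.0583, adjusted p = 5.2e-07, edgeR), without overlap. PLD1 had 47.4, 42.3 and 41.0 CPM against 41.0, 37.6 and 40.9 CPM, with overlapping groups, and its fall passed narrowly (log2 fold change -0.13, SE 0.0584, adjusted p = 0.0355, edgeR). That call was lost with DESeq2, with its size factors in edgeR and with a stricter filter. It was also lost without shControl replicate 1 (edgeR, adjusted p = 0.248) and without shHDAC5 replicate 2 (adjusted p = 0.164). It had the other sign under upper-quartile factors and total counts (log2 fold change 0.012 and 0.055; edgeR's and DESeq2's adjusted p from 0.00456 to 0.854 over all alternatives).

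A wider list held 56 further genes of the same pathways and their regulators. Of 51 tested, 25 rose and 25 fell (49% each, beside 44.8% and 39.9% of all genes tested). The counts given below for parts of this list stand beside the same shares of all genes. The median log2 fold change of the 51 was 0.28, also with the 2 genes that had no shControl count set to their bound. The 4 glycerol phosphate acyltransferases, which start glycerolipid synthesis, all rose, among them GPAM from 26.6 ± 2.15 to 134 ± 4.86 CPM and GPAT4 from 62.1 ± 2.86 to 147 ± 1.59 CPM (SD, n = 3 each). In the elongation cycle 4 of 10 rose and 6 fell. There the elongases ELOVL3 and ELOVL7 rose by 2.91 and 2.32 on the log2 scale, and the dehydratases HACD4 and HACD2 fell by 3.07 and 0.75. Among other acyl transfer genes 2 of 7 rose and 5 fell. ACSBG1, an acyl-CoA synthetase known from brain, rose from 0.364 ± 0.213 to 35.2 ± 1.47 CPM and ACSBG2 from 1.21 ± 0.408 to 2.39 ± 0.260 CPM. The fatty acid transport protein SLC27A3 fell from 39.8 ± 1.03 to 6.26 ± 1.04 CPM and the acyltransferase LPGAT1 from 74.8 ± 3.64 to 26.8 ± 1.55 CPM (SD, n = 3 each).

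Of 12 tested further head group and CDP-diacylglycerol enzymes, 6 rose and 6 fell. The CDP-diacylglycerol synthases moved apart. CDS1 had 1 count under shControl labels and 395 under shHDAC5 labels, a ratio of 351 with a 95% exact counting interval of 62.6 to 13889.8, and CDS2 fell from 57.6 ± 4.32 to 28.7 ± 0.512 CPM. ETNK2, an ethanolamine kinase, rose from 2.54 ± 0.432 to 23.6 ± 1.15 CPM, and PEMT, which methylates phosphatidylethanolamine to phosphatidylcholine, fell from 14.2 ± 0.970 to 4.79 ± 0.630 CPM (SD, n = 3 each). Among the other carriers FABP4, a binding protein of fat cells and macrophages, had no count under shControl labels and 8.89 ± 0.658 CPM under shHDAC5 labels (SD, n = 3), at least 138-fold higher against 3 counts over the group. FABP6 was at least 36.7-fold higher on the same rule. Of the 4 fat cell markers, ADIPOQ had 0 and 2 counts under shControl and shHDAC5 labels, LEP 0 and 2, CIDEC 4 and 4, and PLIN1 22 and 33. Of the other phospholipases D, PLD3 rose by 0.65 and NAPEPLD and PLD6 fell by 1.21 and 0.77 on the log2 scale.

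The 12 regulators also divided, 6 up and 6 down. NR1H3, the liver X receptor alpha that drives several desaturase and acyltransferase genes, fell from 59.3 ± 2.87 to 8.97 ± 1.35 CPM and its partner RXRA from 139 ± 3.62 to 47.7 ± 3.10 CPM. INSIG1, which holds back the sterol regulatory factors, rose from 158 ± 3.41 to 404 ± 6.94 CPM and the fatty acid receptor PPARD from 20.9 ± 1.17 to 64.6 ± 1.42 CPM (SD, n = 3 each).

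GATA1 binding in PANC-1 is held as 1 peak list per label, so no difference between labels could be tested. Peak names inside both lists contradict the labels. The list called shControl here, whose own label is NC, has names that begin with GATA1-SAHA-IP. The list labelled shHDAC5 has names that begin with GATA1-NC-IP, the label of the other list. Which condition a list shows is therefore uncertain. A peak summit lay within 1 kb of a gene start for 27 of the 43 genes in the list labelled shControl (62.8%, beside 47.0% of 20037 coding genes) and for 10 in the list labelled shHDAC5 (23.3%, beside 24.3%). Starts came from RefSeq for 36 genes, and for the other 7 either gene end was used. Both lists had such a peak at 8 of the 43 genes, beside 13.3% of coding genes. Beside the higher share in the list labelled shControl, the median GC content of the 36 promoters was 70.7%, against 62.7% over 15843 coding promoters, and its part was not tested. Within 5 kb the counts were 32 (beside 62.8%) and 26 (beside 61.1%), and over the gene body 40 (beside 74.0%) and 39 (beside 77.2%).

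By the authors' own values most of these peaks were weak. At a q of at most 0.05, PTDSS2 and ACSL4 kept a peak in the list labelled shControl (4.65% of the genes, beside 5.71% of coding genes) and 0 genes did in the list labelled shHDAC5 (beside 0.215%). At a fold enrichment of at least 5, PTDSS2 alone was left in the former (beside 0.569%) and 0 genes in the latter (beside 0.015%). The PTDSS2 peak (chromosome 11, 450325 to 451012) had a fold enrichment of 5.26 and a −log10 q of 4.05, with its summit 207 bp past the start, beyond the printed window. The ACSL4 peak (chromosome X, 109732875 to 109733746) had a fold enrichment of 4.34 and a −log10 q of 1.80, with its summit 262 bp before the start. Of these 2 genes the first had the largest RNA fall among the 39 and the second barely changed.

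PLD2, LPCAT4, ELOVL5 and FADS2 had peaks of fold 4.07, 4.07, 4.02 and 3.93 in the list labelled shControl. CHPT1, whose RNA fell, and ACSL3 and SLC27A4, whose RNA rose, each had a peak of 3.79 there. FADS1 had no summit within 1 kb of its start in either list. The FADS2 peak (chromosome 11, 61815404 to 61816450) nevertheless lies inside the FADS1 gene, so it cannot be assigned to FADS2 alone. LPCAT3 and LPIN1 had a peak in the list labelled shHDAC5 alone, of fold 2.99 and 1.71 and with a −log10 q of only 0.077 and 0. GATAA, searched on both strands, occurred in 4 of the 36 promoter windows (11.1%, beside 18.2% of all 15843), those of AGPAT3, AGPAT4, CD36 and CHPT1. CCAAT, the box bound by NF-Y, searched in the same way, occurred in 12 (33.3%, beside 36.4%). Of the 3 printed promoters only that of CHPT1 held either motif, GATAA once, and a match of letters is no proof of binding.

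**Figure D4:**
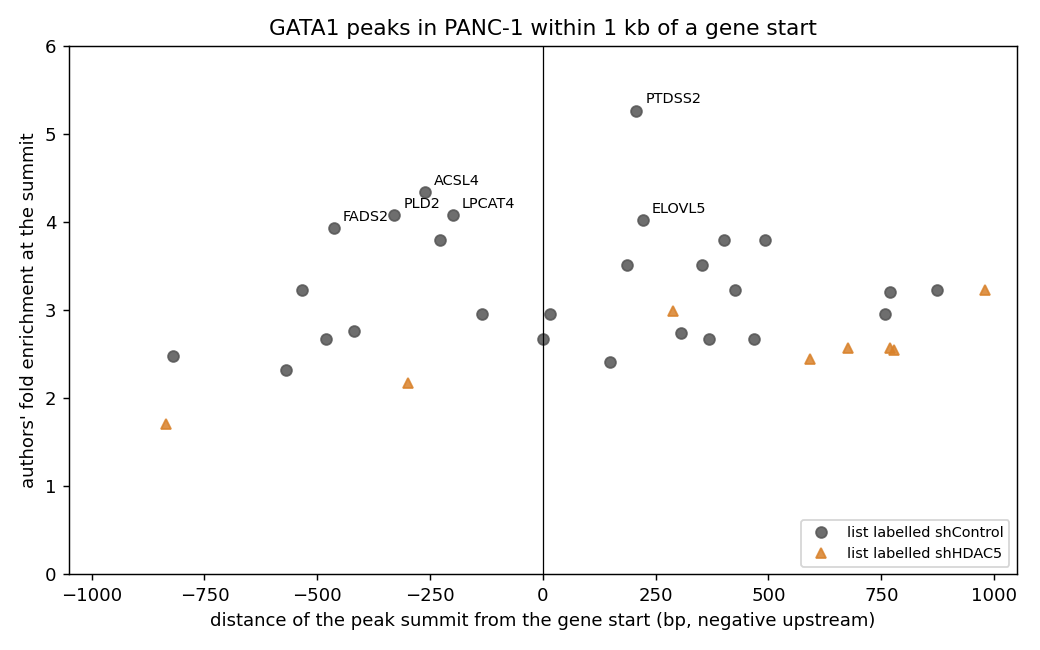
Authors' fold enrichment (y axis) of each GATA1 peak in PANC-1 against the distance of its summit from the gene start (x axis), for the genes with a RefSeq start. Both lists are shown, with 27 peaks at 21 genes labelled shControl and 8 peaks at 8 genes labelled shHDAC5. PTDSS2 is highest at 5.26, and the peaks of the list labelled shHDAC5 stay at or below 3.23.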

How the data were processed

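RNA values are raw read counts per Ensembl gene as deposited by the authors, with gene lengths. The submitters' processing notes name fastp 0.23.2, featureCounts 2.0.1, MACS2 2.2.7.1 and hg38 without roles. Aligner, annotation release and strand were not given in the sources used here, and 14 of the 43 genes overlap another coding gene in RefSeq. Each deposited peak carries the authors' fold enrichment (a ratio) and their −log10 q. Whether samples were pooled for peak calling is not stated in the labels, and inputs were not analysed here.

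Counts were fitted over all genes with edgeR 4.0.16 (R 4.3.3; filterByExpr, TMM, quasi-likelihood test on group alone, Benjamini-Hochberg over 19181 genes, threshold 0.05), tested first on simulated data. The SE was taken as the size of the log2 fold change divided by √F. Within groups every pair of libraries differed beyond sampling noise (chi-square over degrees of freedom 1.57 to 2.07). The spread beyond that noise was small, with a common dispersion of 0.000656 in the fit. Only peaks on the autosomes, X and Y entered.

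The genes, roles and lists were chosen with earlier results of these data known. Values in each library are given for 8 genes set by function, for up to 3 called genes per role with the smallest adjusted p and for the largest change in each direction. MBOAT1, FABP3 and the genes given by mean alone were added after their values were seen. Of the other pathway genes, up to 2 called per direction and list are named. The FADS neighbours named were likewise added later. Alternatives were DESeq2 1.42.0, other scalings, filters and thresholds, a replicate block, each library left out, and other peak windows and thresholds.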

Additional observations from a re-analysis of the deposited data

How the results depend on the processing

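Of the 39 tested genes, 30 kept their direction and their side of the threshold under every alternative of tool, scaling, filter, block and left-out library, and 9 did not under at least 1. Without the filter the log2 fold changes of ELOVL5, LPCAT4 and LPIN2 were -0.024, -0.031 and -0.032, and over left-out libraries they ranged from -0.010 to 0.016, from -0.031 to 0.014 and from -0.052 to 0.039, none passing. ACSL4 was 0.041 and 0.085, AGPAT5 0.023 and 0.067 and PLD1 0.012 and 0.055 under upper-quartile factors and total counts, of which only the second ACSL4 value passed, as the opposite call (adjusted p = 0.0268, edgeR). With total counts alone MYRF, TECR and SREBF1 of the wider lists reversed to 0.010, 0.00785 and 0.021, none passing. The causes were not tested. At a change of at least 2-fold, 9 and 6 of the 39 genes, 15 and 13 of the other pathway genes and 5071 and 3846 of all genes were left, higher and lower. Leaving out each library gave 18 to 19 lipid genes higher and 16 to 18 lower. Same-numbered libraries did not deviate together (correlations -0.0126, 0.00258 and 0.00593). No shared effect of the number was thus visible, but libraries paired with a small effect could give such values too. With the replicate block, 18 were higher and 18 lower, 25 and 25 of the pathway genes and 8514 and 7558 of all genes. In the list labelled shHDAC5, 26 genes had a summit within 5 kb of a start and 39 over the gene body, against 0 at a q of at most 0.05 and 0 at a fold of at least 5, and in the list labelled shControl 2 and 1 were left at those thresholds. Depth limits what can be said of the 4 genes below the filter.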
